A study of Mus with 8 samples.

Results

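Etv1, Etv4 and Etv5 form the PEA3 group of ETS transcription factors, and they are described here with Sprouty and Spred genes (Spry1, Spry2, Spry4 and Spred1) and dual-specificity phosphatase genes (Dusp4, Dusp5 and Dusp6). Growth factor receptors signal through RAS and a chain of kinases to ERK, and active ERK switches on the PEA3 factors. It also switches on its own brakes. Sprouty and Spred proteins act on the receptor and RAS side of the chain, while the Dusp proteins remove phosphate from ERK itself, Dusp6 in the cytoplasm and Dusp4 and Dusp5 in the nucleus. RNA of these genes is widely used as a readout of ERK activity, and in preadipocytes ERK signalling is part of the early response to the adipogenic inducers. The 10 genes were taken by name from the 24013 genes of the count table, and all of them passed the filter on low counts. They were chosen with earlier results of these data known, and the measured values they were chosen by are taken to be those of the induction of C cells, in which Etv4 was low. Values of that comparison are therefore given as a description, without p-values.

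The cells were 3T3-L1, a mouse preadipocyte line, infected with a lentivirus for a scrambled shRNA (C cells) or for an shRNA against Prep1 (P cells) and selected in puromycin, so that P cells stand for a pool of cells with 1 shRNA. RNA was sequenced at day −2, before induction, and at day 1, 1 day after the change to 1 μM dexamethasone, 0.5 mM IBMX and 1 μg/ml insulin with 10% FBS. Each of the 4 conditions had 2 biological replicas, which makes 8 libraries. Cells at day −2 had been grown with BCS, so time at confluence, the serum and the 3 inducers differed together between the days and cannot be told apart.

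The libraries held 20428816 to 27614353 counts. Values are counts per 1000000 counts of the TMM-scaled library (CPM), and 3 counts corresponded to 0.107 to 0.160 CPM, a floor for counting error only. Tests were edgeR's quasi-likelihood tests with Benjamini-Hochberg adjustment over 13339 genes, and a gene was called at an adjusted p under 0.1 with at least a ratio of 2 in either direction. The interaction is the log2 ratio with induction in P cells minus that in C cells, called on its adjusted p alone. It contains the C cell ratio that the 10 genes were chosen by, and each comparison of P with C cells uses C libraries of that ratio. Their p-values and calls for the 10 genes are thus not independent of the choice. The ratio with induction in P cells uses no C library, but it comes from the same treatment of the same line. Its tests also use a spread shared with the C libraries, so it is no independent check on the choice either. Prep1 (listed as Pknox1) was lower in P cells by a log2 ratio of −0.62 (standard error, SE, 0.14; adjusted p = 0.0558) at day −2 and −0.65 (SE 0.14, adjusted p = 0.0575) at day 1, less than the ratio threshold. The P libraries at day −2 differed most from each other: over 5600 abundant genes the log2 difference between replicas had an SD of 0.795, against 0.121 to 0.261 in the other conditions. Called results of the 10 genes that use these libraries are given without either of them as well. Such a fit takes the spread between these 2 replicas out of the model, so a call kept in it is no check on that spread. The summed preadipocyte and fibroblast markers were at 23000 and 78900 CPM in those libraries and between 16800 and 26100 CPM in the others. Adipocyte markers summed to 202 to 207 CPM in P cells at day 1 and to at most 48.4 CPM elsewhere. Marker lists of macrophages, endothelial, epithelial and neural cells summed to at most 8.13 CPM in every library. The part of these marker levels in the results was not tested. In bulk RNA, fewer cells of a kind and less RNA per cell cannot be told apart.

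Etv4 (NCBI gene 18612) had the widest range of all 10 genes. It was at 112 and 105 CPM in the C libraries and at 50.5 and 44.3 CPM in the P libraries at day −2. At day 1 it was at 1.46 and 1.15 CPM in C cells and at 0.214 and 0.373 CPM in P cells, the latter from 5 and 8 counts. The 4 conditions did not overlap, and their order from high to low was C, then P at day −2, followed by C, then P at day 1. In P cells Etv4 fell by 7.32 on the log2 scale with induction (SE 0.28, adjusted p = 8.36e-05), and in C cells the log2 ratio was −6.37 (SE 0.24). Without replica 1 or replica 2 of P cells at day −2 the ratio in P cells was −7.24 or −7.41. Etv4 was lower in P than in C cells before induction, with a log2 ratio of −1.19 (SE 0.19, adjusted p = 0.0163), and after it, with −2.15 (SE 0.30, adjusted p = 0.0157). The day −2 value was −1.28 and −1.11 without replica 1 and replica 2 of P cells. It was no longer called without replica 1 (−1.15, adjusted p = 0.184) or replica 2 (−1.24, adjusted p = 0.162) of C cells at day −2, or with the day −2 libraries fitted alone (−1.21, adjusted p = 0.142). The day 1 call was lost without replica 1 of C cells at day 1 (−2.00, adjusted p = 0.112) and without replica 1 (−1.79, adjusted p = 0.169) or replica 2 (−2.59, adjusted p = 0.108) of P cells at day 1, and a filter of 10 counts in every library removed the gene. The day 1 call was kept with the day 1 libraries fitted alone. It was also kept under every alternative on all 8 libraries that tested the gene. The adjusted p in these fits was at most 0.0477. The interaction was −0.96 (SE 0.36, adjusted p = 0.309). Of the alternatives run, it was called only without replica 2 of P cells at day −2 (−1.05, adjusted p = 0.0362), where the interaction was called for 8395 of all genes.

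Etv5 (NCBI gene 104156) had the same order of conditions over a narrower range. It was at 27.7 and 28.5 CPM in C cells and 17.0 and 20.3 CPM in P cells at day −2, and at 3.08 and 3.90 CPM in C cells and 2.39 and 1.96 CPM in P cells at day 1. Induction lowered it in P cells by a log2 ratio of −3.10 (SE 0.22, adjusted p = 3.72e-04), and in C cells the log2 ratio was −3.01 (SE 0.22). Without replica 1 or replica 2 of P cells at day −2 the value in P cells was −3.23 or −2.95. The P libraries lay under the C libraries on both days without a call. Relative to C cells the log2 ratio was −0.59 at day −2 (95% interval −1.06 to −0.11, adjusted p = 0.135) and −0.68 at day 1 (−1.20 to −0.15, adjusted p = 0.180).

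Etv1 (NCBI gene 14009) was not called with induction in C or in P cells. In C cells it was at 17.5 and 19.9 CPM at day −2 and at 21.2 and 18.8 CPM at day 1, so that the days overlapped, with a log2 ratio of 0.10 (95% interval −0.41 to 0.61). In P cells it was at 11.7 and 16.7 CPM at day −2 and at 7.91 and 7.61 CPM at day 1. Its log2 ratio with induction in P cells was −0.87 (SE 0.22, adjusted p = 0.0336), past the p-value threshold and short of a ratio of 0.5. It was −1.12 and called without replica 1 of P cells at day −2, and −0.58 without replica 2. At day 1 Etv1 was lower in P than in C cells by a log2 ratio of −1.37 (SE 0.22, adjusted p = 0.0241). This call was lost without replica 1 (−1.31, adjusted p = 0.183) or replica 2 (−1.47, adjusted p = 0.153) of C cells and without replica 1 (−1.39, adjusted p = 0.240) or replica 2 (−1.35, adjusted p = 0.248) of P cells at day 1. The day 1 call was kept with the day 1 libraries fitted alone and under every alternative on all 8 libraries. In these fits the adjusted p was at most 0.0678. At day −2 the ratio was −0.39 (95% interval −0.91 to 0.12). The interaction, −0.97 (SE 0.31, adjusted p = 0.238), was not called. It was called with DESeq2 (−0.99, adjusted p = 0.0953), which called the interaction for 930 of all genes, against 316 with edgeR. Without replica 1 or replica 2 of P cells at day −2 it was −1.24 or −0.68. It was called in both of these fits, which leave out the spread between these replicas.

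**Figure D1:**
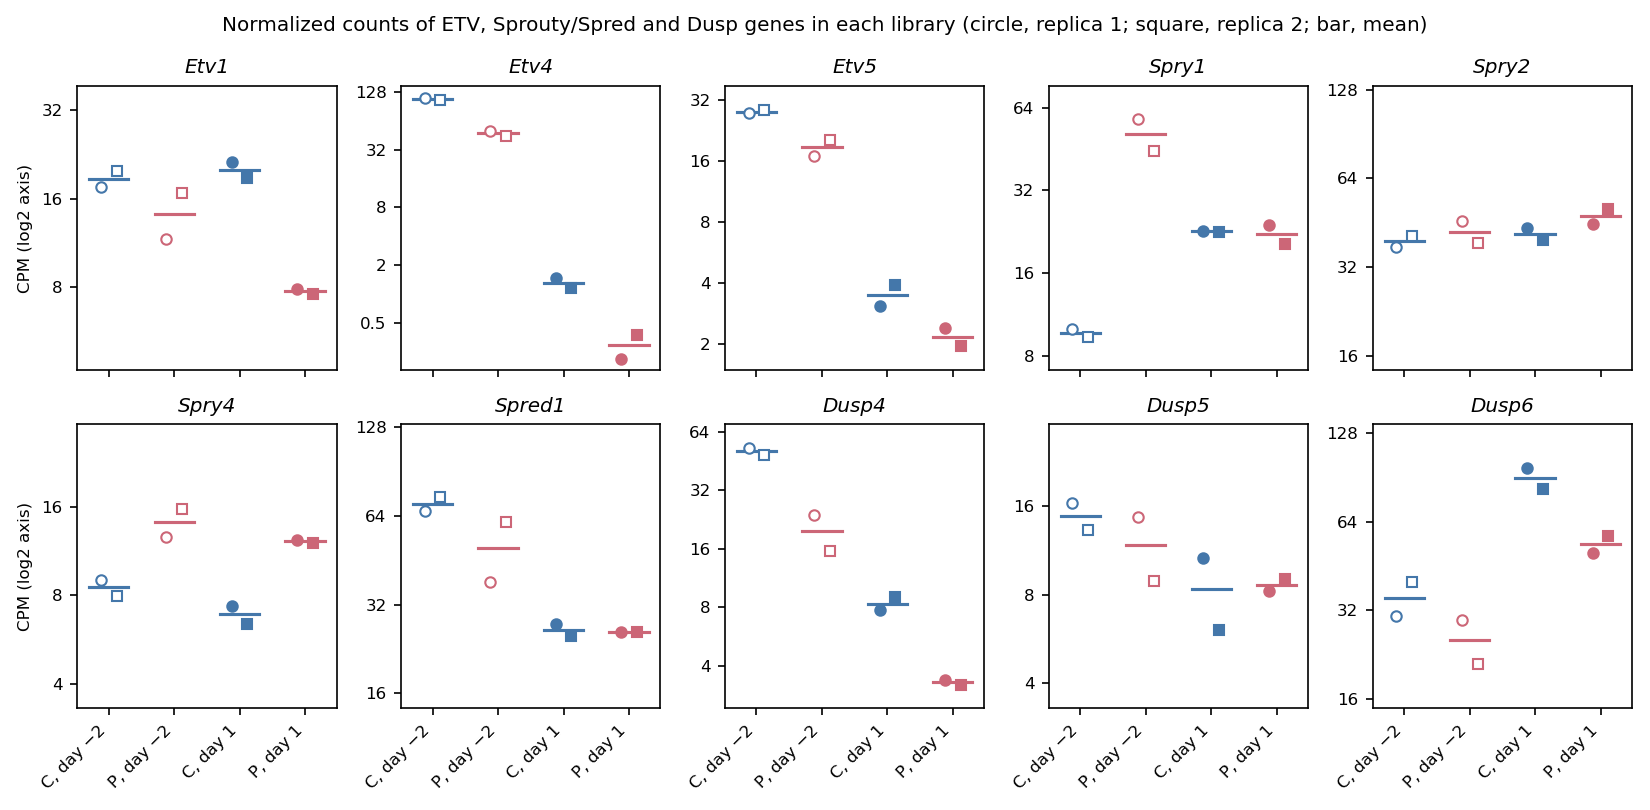
CPM of each of the 10 genes on a log2 axis in the 8 libraries, with C cells in blue, P cells in red, day −2 as open and day 1 as filled symbols, circles and squares for replicas 1 and 2, and a bar at the mean. Etv4 runs from 112 CPM in C cells at day −2 to 0.214 CPM in P cells at day 1, Spry1 is highest in both P libraries at day −2, and Dusp6 is highest in both C libraries at day 1.

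Dusp4 and Dusp6 were called in opposite directions with induction. Dusp4 (NCBI gene 319520), a nuclear phosphatase, was at 52.9 and 48.4 CPM in C cells and 24.0 and 15.6 CPM in P cells at day −2, and at 7.70 and 8.998 CPM in C cells and 3.38 and 3.17 CPM in P cells at day 1. No condition overlapped another, and the order was that of Etv4 and Etv5. Induction lowered Dusp4 in P cells, with a log2 ratio of −2.59 (SE 0.25, adjusted p = 0.00104), or −2.26 and −2.86 without replica 1 and replica 2 of P cells at day −2. The C cell ratio was −2.60 (SE 0.24), and the interaction was 0.01 (95% interval −0.89 to 0.91). Dusp4 was lower in P than in C cells, with a log2 ratio of −1.36 at day −2 (SE 0.23, adjusted p = 0.0217) and −1.35 at day 1 (SE 0.25, adjusted p = 0.0353). The day 1 call was kept with the day 1 libraries fitted alone and under every alternative on all 8 libraries (adjusted p at most 0.0768). The day −2 ratio was −1.69 without replica 1 and −1.09 without replica 2 of P cells. It lost its call without replica 1 (−1.29, adjusted p = 0.189) or replica 2 (−1.42, adjusted p = 0.159) of C cells at day −2 and with the day −2 libraries fitted alone (−1.37, adjusted p = 0.187). The day 1 ratio lost its call, at −1.49 to −1.25 and adjusted p from 0.111 to 0.281, without any 1 of the C libraries or any 1 of the P libraries at day 1.

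Dusp6 (NCBI gene 67603), the cytoplasmic ERK phosphatase, was higher at day 1 in every library. It was at 30.6 and 40.0 CPM in C cells and at 29.8 and 21.0 CPM in P cells at day −2, and at day 1 it was at 97.0 and 82.6 CPM in C cells and at 49.96 and 57.1 CPM in P cells. The log2 ratio was 1.08 in P cells (SE 0.23, adjusted p = 0.0190) and 1.35 in C cells (SE 0.23). The call in P cells sat close to the thresholds. It was 1.34 without replica 1 of P cells at day −2, and it was lost without replica 2 of P cells at day −2 (0.85) or at day 1 (0.98, adjusted p = 0.136) and with the P libraries fitted alone (1.09, adjusted p = 0.102). P cells lay under C cells without a call, with a log2 ratio of −0.48 at day −2 (95% interval −1.02 to 0.07) and −0.75 at day 1 (−1.29 to −0.21, adjusted p = 0.153). The interaction was −0.27 (95% interval −1.03 to 0.49). Dusp5 (NCBI gene 240672), a nuclear phosphatase of ERK, was between 6.05 and 16.4 CPM in all libraries. Its replicas differed up to 1.76-fold in C cells at day 1, and it was called in none of the tested comparisons. Its log2 ratio was −0.83 with induction in C cells (95% interval −1.65 to −0.01). In P cells it was −0.44 (−1.26 to 0.37, adjusted p = 0.385).

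Spry1 (NCBI gene 24063), a Sprouty inhibitor of the pathway, was called higher in P than in C cells at day −2 and lower after induction in P cells. It was at 10.0 and 9.35 CPM in C cells and at 58.3 and 44.7 CPM in P cells at day −2. At day 1 it was at 22.8 and 22.7 CPM in C cells and at 24.0 and 20.4 CPM in P cells. The day −2 groups lay far apart and the day 1 groups overlapped. Relative to C cells the log2 ratio was 2.41 at day −2 (SE 0.19, adjusted p = 0.00200), a 5.31-fold higher level, and −0.04 at day 1 (95% interval −0.47 to 0.40). Without replica 1 or replica 2 of P cells the day −2 ratio was 2.21 or 2.58. Under the alternatives that kept both replicas of each condition compared, it stayed called, with an adjusted p of at most 0.0805. Induction lowered Spry1 in P cells, with a log2 ratio of −1.21 (SE 0.19, adjusted p = 0.00574), or −1.02 and −1.39 without replica 1 and replica 2 of P cells at day −2. The C cell ratio was 1.23 (SE 0.19). The interaction was −2.45 (SE 0.26, adjusted p = 0.0127), or −2.27 and −2.62 without those replicas. It lost its call without replica 1 (−2.50, adjusted p = 0.117) or replica 2 (−2.40, adjusted p = 0.123) of C cells at day −2 and without replica 1 (−2.57, adjusted p = 0.113) or replica 2 (−2.34, adjusted p = 0.126) of P cells at day 1. The day −2 libraries enter both the interaction and the ratio between P and C cells at that day, so the values are not independent. The interaction also contains the C cell ratio, by which the genes were chosen.

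Spry4 (NCBI gene 24066) was higher in P cells on both days by less than the ratio threshold. It was at 9.05 and 7.97 CPM in C cells and 12.7 and 15.7 CPM in P cells at day −2, and at 7.38 and 6.41 CPM in C cells and 12.4 and 12.1 CPM in P cells at day 1. Every P library lay above every C library. The log2 ratio was 0.74 at day −2 (SE 0.19, adjusted p = 0.0802) and 0.83 at day 1 (SE 0.20, adjusted p = 0.0779). Its ratio with induction was −0.30 in C cells (95% interval −0.77 to 0.16) and −0.22 in P cells (−0.67 to 0.24, adjusted p = 0.446). Spry2 (NCBI gene 24064) stayed between 37.5 and 50.3 CPM in all libraries. Its log2 ratios were 0.17 with induction in P cells (95% interval −0.20 to 0.55), 0.11 for P against C cells at day −2 (−0.26 to 0.48) and 0.20 at day 1 (−0.17 to 0.57), none of them called. Of the Sprouty genes, only Spry1 was called in any of the 4 comparisons or for the interaction.

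Spred1 (NCBI gene 114715), a membrane-bound inhibitor of RAS signalling, was at 66.5 and 74.0 CPM in C cells and 38.1 and 61.1 CPM in P cells at day −2. At day 1 it was at 27.5 and 25.1 CPM in C cells and 25.9 and 25.7 CPM in P cells. Both kinds of cells were lower at day 1 and overlapped there. The log2 ratio with induction was −1.42 in C cells (SE 0.23) and −0.94 in P cells (SE 0.23, adjusted p = 0.0309), the latter short of the ratio threshold. It was −1.25 and called without replica 1 of P cells at day −2, the lower of that pair, and −0.55 without replica 2. The interaction was 0.47 (95% interval −0.30 to 1.24), and 0.86 without that replica 2. No alternative that kept both replicas of each condition called it. Relative to C cells the ratio was −0.50 at day −2 (95% interval −1.04 to 0.04), with −0.19 and −0.89 without replica 1 and replica 2 of P cells, and −0.03 at day 1 (−0.58 to 0.52).

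**Figure D2:**
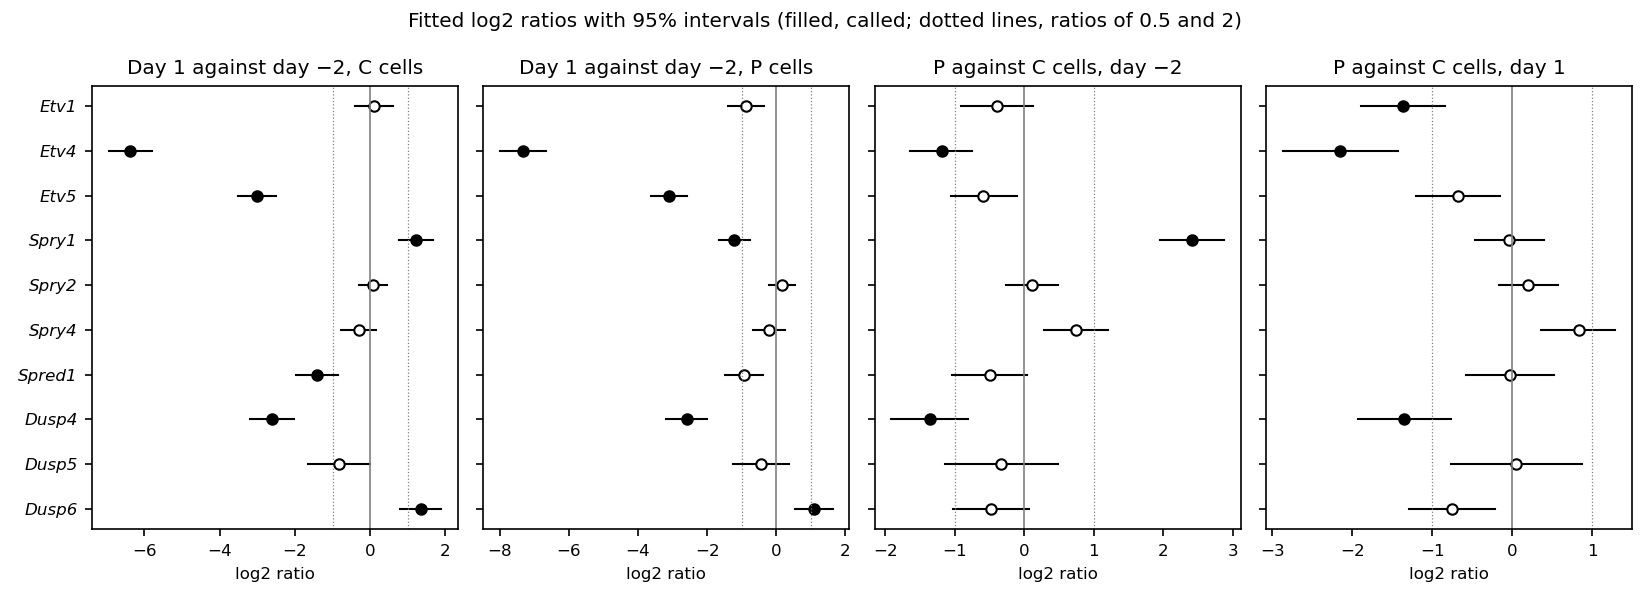
Fitted log2 ratio of each of the 10 genes in the 4 comparisons, with 95% intervals from edgeR's quasi-likelihood fit, filled points for called genes and dotted lines at ratios of 0.5 and 2. Spry1 lies at 1.23 with induction in C cells, at −1.21 in P cells and at 2.41 between P and C cells at day −2, and Etv4 is below −1 in all 4 comparisons.

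With induction in P cells, 5 of the 10 genes were called, Dusp6 higher and Etv4, Etv5, Spry1 and Dusp4 lower, where 18.0% of all genes tested were called (7.65% higher and 10.4% lower). The median log2 ratio of the 10 was −0.91 against 0.02 over all genes. This count and median are not independent of the choice, since P cells are the same line given the same inducers. In C cells, the comparison the genes were chosen by, Spry1 and Dusp6 were higher and Etv4, Etv5, Spred1 and Dusp4 lower past the same thresholds, 6 genes, where 20.4% of all genes were past them (10.7% higher and 9.68% lower). Nothing is read from that count, since the choice of the genes used it. Between P and C cells at day −2, 3 were called, Spry1 higher and Etv4 and Dusp4 lower, where 6.98% of all genes were called (4.83% higher and 2.15% lower). At day 1, 3 were called, Etv1, Etv4 and Dusp4, all lower, where 4.06% of all genes were called (1.83% higher and 2.23% lower). The interaction was called for 1 of the 10, Spry1, where it was called for 2.37% of all genes (0.435% positive and 1.93% negative). The medians of the 10 between P and C cells were −0.44 at day −2 and −0.36 at day 1, both against 0.01 over all genes. The comparisons share libraries, and those of P with C cells and the interaction share them with the comparison the genes were chosen by. With library totals in place of TMM the median of all genes moved to 0.195 with induction in P cells and, at day −2, to −0.175 between P and C cells, and the same numbers of the 10 genes were called in each direction in all comparisons.

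Among the 10 genes, the log2 CPM profiles of Spry2 and Spry4 lay closest (a root mean square difference of 0.40 over the 8 libraries after centring each gene), and those of Etv4 and Dusp6 lay farthest apart (3.97). Etv5 and Dusp4 differed by 0.49. Of the 10894 other genes compared, those closest to Etv5 were Ablim1, Pcyt1b and Thbs2, at 0.11, 0.17 and 0.18 against a range of 3.80 for Etv5. Thbs2, the gene of the matrix protein thrombospondin-2, went from 596 ± 5.90 to 85.7 ± 4.55 CPM in C cells and from 362 ± 15.4 to 44.9 ± 1.76 CPM in P cells (SD, n = 2 each). The genes closest to Etv4 were Spp1, Fgd3 and Arhgap22, at 0.59, 0.88 and 0.94 against a range of 8.55. The low end of that range rests on 5 counts in 1 library of P cells at day 1. Fgd3 was near the floor at day 1, at 0.218 CPM in C cells and 0.276 CPM in P cells (means, n = 2 each). Its log2 ratios between P and C cells were −0.08 at day −2 and 0.30 at day 1, without a call. Spp1, which encodes the secreted protein osteopontin, was at 1216 ± 95.9 CPM in C cells at day −2 and 10.6 ± 0.413 CPM in P cells at day 1 (SD, n = 2 each). Closest to Dusp6 were Man2b1, Saysd1 and the transcription factor gene Klf4, at 0.16, 0.17 and 0.19 against a range of 2.20, and closest to Spry4 were Gng10, Fat1 and Rnf168, at 0.11, 0.13 and 0.15 against a range of 1.28.

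The other genes of the pathway were 109 genes in 5 lists written from general knowledge, of which 98 passed the filter. With induction in P cells, 10 of the 98 were called higher and 27 lower, where 7.65% and 10.4% of all genes were called, with a median log2 ratio of −0.26 against 0.02 over all genes. In C cells, 16 were called higher and 24 lower, where the shares were 10.7% and 9.68% and the medians −0.23 and −0.01. Between P and C cells at day −2, 11 were called higher and 8 lower, where 4.83% and 2.15% of all genes were called, with medians of −0.06 and 0.01. The 19 called at day −2 became 2 without either C library of that day, 9 to 12 without any 1 library of day 1, and 41 without replica 2 of P cells at day −2. At day 1, 6 were called higher and 7 lower, where 1.83% and 2.23% of all genes were called, with medians of −0.10 and 0.01. The 13 called at day 1 became 2 without either P library of that day, 4 to 7 without any 1 C library, and 20 without either P library of day −2. The counts of the single lists stand against the same shares. Among 25 ligands and receptors tested, 7 were called higher and 9 lower with induction in P cells (median log2 ratio −0.57). In C cells 7 were called higher and 7 lower (median −0.19). Relative to C cells, 5 were called higher and 3 lower in P cells at day −2, and 4 higher at day 1 (median log2 ratio 0.11 and 0.09). Fgf10, a ligand of the FGF receptors, was higher in P cells on both days, at 14.7 ± 0.291 against 6.49 ± 0.219 CPM at day −2 and 106 ± 1.06 against 37.7 ± 2.84 CPM at day 1 (SD, n = 2 each). Its log2 ratios between P and C cells were 1.17 (adjusted p = 0.00652) and 1.49 (adjusted p = 0.00407), and induction raised it in P cells by 2.86 (adjusted p = 1.28e-04). The day −2 ratio lost its call without replica 1 (1.14, adjusted p = 0.119) or replica 2 (1.21, adjusted p = 0.108) of C cells at day −2, and with library totals in place of TMM it was short of the ratio threshold (0.98, adjusted p = 0.0182). The receptor gene Fgfr2 rose by 2.51 with induction in P cells (adjusted p = 2.08e-04), and in C cells its log2 ratio was 2.24. Fgfr3 was at 32.6 ± 2.38 CPM in P cells and 1.88 ± 0.264 CPM in C cells at day 1 (SD, n = 2 each), a log2 ratio of 4.11 (SE 0.33, adjusted p = 0.00251). Hbegf, a ligand of the EGF receptor, went from 19.6 ± 1.17 to 3.67 ± 0.107 CPM in C cells. In P cells it went from 12.4 ± 1.49 to 2.59 ± 0.564 CPM (SD, n = 2 each). Whether the higher Fgf10 and Fgfr3 and the lower Etv1, Etv4 and Dusp4 of P cells at day 1 are related was not tested.

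In the RAS-ERK cascade, 25 genes were tested. With induction, 1 was called higher and 3 lower in C cells and 2 lower in P cells, where 20.4% and 18.0% of all genes were called. Between P and C cells, 2 were higher and 1 lower at day −2 and 1 of each at day 1, where 6.98% and 4.06% of all genes were called. Rps6ka1, a kinase activated by ERK, was at 24.3 ± 4.47 against 55.6 ± 5.39 CPM at day −2 and 15.3 ± 1.17 against 40.5 ± 2.30 CPM at day 1 in P and C cells (SD, n = 2 each), with log2 ratios of −1.19 (adjusted p = 0.0148) and −1.41 (adjusted p = 0.0122). The day −2 call was lost without replica 1 (−1.09, adjusted p = 0.166) or replica 2 (−1.29, adjusted p = 0.112) of C cells, and the day 1 call without replica 2 of C cells (−1.36, adjusted p = 0.115) or replica 1 (−1.33, adjusted p = 0.173) or replica 2 (−1.49, adjusted p = 0.147) of P cells at day 1. Of 20 other negative regulators tested, 2 were higher and 7 lower with induction in P cells (median −0.35), where 7.65% and 10.4% of all genes were. In C cells 2 were higher and 8 lower (median −0.79), where 10.7% and 9.68% of all genes were. Between P and C cells, 3 were lower at day −2 (median −0.36) and 2 at day 1 (median −0.04), where 2.15% and 2.23% of all genes were. Il17rd, also called Sef, an inhibitor of FGF signalling, was at 9.24 ± 0.496 CPM in P cells and 24.5 ± 1.80 CPM in C cells at day −2 (SD, n = 2 each), a log2 ratio of −1.40 (SE 0.16, adjusted p = 0.00579).

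Of 14 ERK output genes tested, 8 were called lower with induction in P cells (median −1.30), where 10.4% of all genes were. In C cells 5 were lower and 4 higher (median −0.28), where 9.68% and 10.7% of all genes were. Between P and C cells 3 were higher and 1 lower at day −2 (median 0.43), where 4.83% and 2.15% of all genes were. At day 1, 3 were lower (median −0.59), where 2.23% of all genes were. The early growth response gene Egr1 was at 131 ± 27.3 CPM in P cells and 37.0 ± 3.21 CPM in C cells at day −2 (SD, n = 2 each), a log2 ratio of 1.82 (SE 0.18, adjusted p = 0.00346). Spry1 had that direction and Etv4 the opposite one. Egr1 was at 283 ± 10.9 CPM in C cells and 257 ± 1.13 CPM in P cells at day 1 (SD, n = 2 each). The cyclin D1 gene Ccnd1 was at 735 ± 48.5 and 82.8 ± 2.79 CPM in C cells at day −2 and day 1 (SD, n = 2 each). In P cells it was at 602 ± 167 and 125 ± 6.60 CPM on these days (SD, n = 2 each). The receptor gene Epha2 fell by 3.59 on the log2 scale with induction in P cells (adjusted p = 3.79e-04), and in C cells its log2 ratio was −2.46. Of 14 other ETS factors tested, 1 was higher and 1 lower with induction in P cells, where 7.65% and 10.4% of all genes were. In C cells 2 were higher and 1 lower, where 10.7% and 9.68% of all genes were. Between P and C cells 1 was higher at day −2, where 4.83% of all genes were. At day 1, 1 was higher and 1 lower, where 1.83% and 2.23% of all genes were. Elk3 fell by 1.91 on the log2 scale with induction in P cells (adjusted p = 4.22e-04), and in C cells its log2 ratio was −1.47. Ets2 was at 67.8 ± 4.29 CPM in P cells and 159 ± 8.62 CPM in C cells at day 1 (SD, n = 2 each), with a log2 ratio of −1.23 (adjusted p = 0.00905), a call lost without replica 1 (−1.29, adjusted p = 0.134) or replica 2 (−1.17, adjusted p = 0.162) of P cells at day 1. In the fit of the day −2 libraries alone, the day −2 calls of Egr1, Fgf10, Il17rd and Rps6ka1 were lost, with adjusted p from 0.107 to 0.187. In the fit of the day 1 libraries alone, the day 1 calls of Fgf10, Fgfr3, Ets2 and Rps6ka1 were kept.

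**Figure D3:**
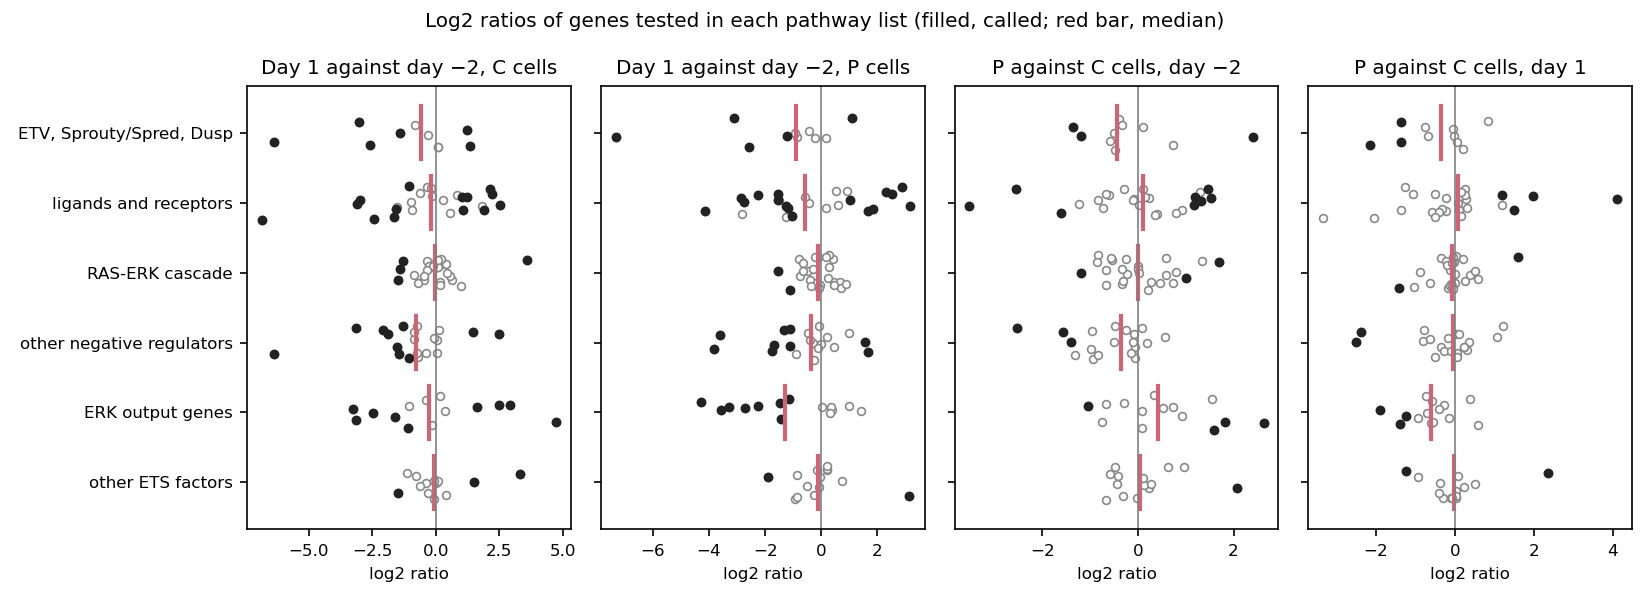
Log2 ratio of each gene tested in the 10 ETV, Sprouty, Spred and Dusp genes and in 5 lists of other pathway genes, in the 4 comparisons, with filled points for called genes and a red bar at the median of the list. ERK output genes have a median of −1.30 with induction in P cells and 0.43 between P and C cells at day −2, and the RAS-ERK cascade stays at −0.11 and 0.00.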

How the data were processed

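Total RNA of 8 libraries of 3T3-L1 cells was sequenced on the Ion Torrent system. Reads were cleaned (FASTX-Toolkit) and mapped to mm9 (TopHat2 2.0.9) by the authors, who counted reads per NCBI gene of the UCSC refGene annotation. The deposited counts are whole numbers without normalization. How reads of several genes or of either strand were counted is not given in the sources used here. Symbols came from RefSeq (GRCm38.p6), and 84 genes had none. No other gene of the count table overlapped the 10 genes in that list.

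In R 4.3.3, counts were analysed with edgeR 4.0.16: filterByExpr (13339 genes left), TMM, and 1 quasi-likelihood model with a mean for each of the 4 conditions. Tests are two-sided, and log2 CPM used a prior count of 2. The authors' thresholds (adjusted p under 0.1, ratio over 2 or under 0.5) were kept except for the interaction, which had no ratio threshold. With 2 libraries a condition, the smallest p of an exact permutation test is 0.333. The p-values rest on 1 spread per gene, shared by all 4 conditions, between biological replicas of 1 line. They are therefore not specific to the replicas compared, and those of P cells at day −2 varied most (SD 0.795, against 0.121 to 0.261). For P against C, this shared spread gave 931 called genes before induction, and the day −2 libraries fitted alone gave 81. After induction, the shared spread gave 542 and the day 1 libraries alone 899.

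The 10 genes were chosen, and the pathway lists written from general knowledge, with earlier results of these data known. Pathway genes are named by lowest p, the 2 higher and 2 lower called in each comparison with a mean of at least 50 counts and no overlap of replicas. Alike genes are the 3 with the smallest root mean square difference of centred log2 CPM. Alternatives were DESeq2 1.42.0, other scalings (its size factors, library totals), other filters (none, or a minimum of 10 counts throughout), fits of the compared conditions alone, a replicate block, another adjusted p (0.05), calls on p alone, and leaving out libraries singly. The method was run on simulated data in which each gene had the same spread in all 4 conditions. That cannot show how it behaves with the wider spread of P cells at day −2.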

Additional observations from a re-analysis of the deposited data

Results flagged for a closer look

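The interaction, the log2 ratio with induction in P cells minus that in C cells, was called for Spry1 among the 10 genes and for 4 genes of the pathway lists of 98 tested (edgeR's quasi-likelihood test, adjusted p under 0.1), where it was called for 2.37% of all genes. These 5 genes are listed here because the test of the difference itself passed for them, and nothing is drawn from their number. For Spry1 it was −2.45, with ratios of −1.21 in P cells and 1.23 in C cells, and the call was lost without either C library at day −2 or either P library at day 1 (adjusted p from 0.113 to 0.126). For Fgfr3 it was 2.65 (SE 0.43, adjusted p = 0.0462), with 2.32 in P cells and −0.33 in C cells. For Egr1 it was −1.96 (SE 0.25, adjusted p = 0.0205), with 0.97 in P cells and 2.94 in C cells. For Ksr1, a scaffold protein of the kinase chain, it was −2.72 (SE 0.45, adjusted p = 0.0465), with 0.89 in P cells and 3.61 in C cells. For Rras, a RAS-related GTPase, it was −1.15 (SE 0.22, adjusted p = 0.0712), with −0.76 in P cells and 0.39 in C cells. Ksr1 and Rras are named because they were called here, after their values were seen. The interactions of Fgfr3, Egr1, Ksr1 and Rras lost their calls without any 1 of the 6 libraries other than P cells at day −2. The values there were 2.50 to 2.81, −2.06 to −1.88, −2.86 to −2.57 and −1.27 to −1.03.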

How the results depend on the processing

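Over the 10 genes, no call changed with the replicate block, whose fit called 597 genes and 11 pathway genes between P and C cells at day −2 and 117 and 1 for the interaction, where Fgfr3 (adjusted p = 0.117), Ksr1 (0.113) and Rras (0.189) lost their calls. The replica numbers share only a number: deviations of same-numbered libraries correlated at −0.355 to 0.209 across genes. A block with the day 1 numbers crossed, chosen after seeing the data, changed no call of the 10 genes either and called 1026 genes at day −2.

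DESeq2 called 930 genes, 2 of the 10 and 23 pathway genes for the interaction, and no filter 8 pathway genes. The interaction of Rras was also not called with library totals (−0.86, adjusted p = 0.210) or with no filter (−1.16, adjusted p = 0.103). With the compared conditions fitted alone, edgeR called 1213 genes with induction in P cells and, between P and C cells, 899 at day 1 and 81 at day −2, of them 1 of the 10 and 0 of the pathway (26 pathway genes at an unadjusted p under 0.05; DESeq2 on all libraries called 21). An adjusted p under 0.05 called 602 genes at day −2, 8 pathway genes at day 1 and 174 interactions. Without a ratio threshold 4743, 4192, 1513 and 820 genes were called in the 4 comparisons. The causes were not tested.

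Signs of uncalled values turned near 0. With library totals the log2 ratio was −0.01 for Etv1 and −0.03 for Spry2 with induction in C cells, −0.09 for Spry2 at day −2, 0.07 for Spry1 and 0.07 for Spred1 at day 1, and 0.19 for Etv5 and 0.05 for Dusp6 in the interaction. The interaction of Dusp4 was −0.01 with DESeq2 and with its size factors. With 1 library left out, the interactions ran from −0.26 to 0.32 for Dusp4, −0.27 to 0.09 for Etv5, −0.02 to 0.18 for Spry2 and −0.09 to 0.25 for Spry4. The ratios at day 1 ran from −0.16 to 0.07 for Spry1, −0.11 to 0.01 for Spred1 and −0.31 to 0.48 for Dusp5, and at day −2 from −0.01 to 0.22 for Spry2.

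When libraries were left out singly, the lone library of a condition being assumed to vary like the others, the genes called ran from 1664 to 3329 with induction in C cells, 1248 to 5000 in P cells, 188 to 4380 at day −2 and 63 to 994 at day 1 for P against C, and 32 to 8395 for the interaction. Of the 10 genes, 6 to 7, 4 to 7, 1 to 3, 0 to 3 and 0 to 4 were called in the same order, and of the pathway genes 30 to 43, 26 to 43, 2 to 41, 2 to 20 and 0 to 68. The counts of 5000, 4380 and 8395 genes came without replica 2 of P cells at day −2, against 2121, 912 and 1484 without replica 1, and the cause was not tested. The interaction called 0 pathway genes in edgeR's test without any 1 C library or any 1 P library at day 1, with 18 to 25 at an unadjusted p under 0.05. With 5 to 8 counts of Etv4 in P cells at day 1, its size there is limited by depth.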
